A study of Schizosaccharomyces pombe with 4 samples.

Results

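Genes for cytochrome bc1 (complex III), cytochrome c and cytochrome c oxidase (complex IV) of the mitochondrial respiratory chain were followed in the fission yeast Schizosaccharomyces pombe. The set holds 10 nuclear genes of the 5143 genes in the 24°C table, taken by gene identifier from a list drawn up with earlier results of these data known. They are cyt1 (SPBC29A3.18), rip1 (SPBC16H5.06), qcr1 (SPBP23A10.15c), qcr2 (SPCC613.10), qcr7 (SPCC737.02c) and qcr8 (SPAC1782.07) of complex III, cyc1 (SPCC191.07) for cytochrome c, and cox4 (SPAC1296.02), cox5 (SPCC338.10c) and cox13 (SPCC1739.09c) of complex IV. The gene SPCC1739.09c had been listed as cox6, but the RefSeq annotation of ASM294v3 names it cox13 (subunit VIa) and gives the name cox6 to SPAC1B2.04, which is described below among the other subunits. All 10 members were present in the 24°C table with an FPKM above 100 in both libraries. A 30°C table of 285 genes, which may be a part of a longer one, held 9 of the 10, all except cyc1.

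Wild-type cells were compared with the strain fas S.j., where the coding sequences of both subunits of the cytosolic fatty acid synthase, fas1 and fas2, were exchanged for those of Schizosaccharomyces japonicus. The exchanged genes carry a kanamycin (kanMX6) and a hygromycin (hygR) resistance cassette. Both strains grew exponentially in YES, a rich medium, at 24°C or at 30°C, and poly(A) RNA was sequenced from 1 library per strain and temperature, 4 libraries in all. The study lists its wild type as a prototroph of mating type h-. Its untagged fas S.j. strains are an h+ prototroph and an h- strain with auxotrophic alleles of ade6, ura4 and leu1. Which of these was sequenced is not stated, so in the listed strains mating type or these alleles differ along with the synthase. The comparison asks how far the foreign synthase alters the transcriptome. With 1 library per condition no difference below has a replicate check, and no test or p-value is given.

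The labels were checked on the exchanged genes. At 24°C fas1 (SPAC926.09c) had an FPKM of 301 in the wild-type library and 7.35 in that of fas S.j., and at 30°C of 344 and 16.6. For fas2 (SPAC4A8.11c) it was 336 against 0.320 at 24°C and 347 against 0.832 at 30°C. FPKM is a fragment count divided by gene length and by library size, so levels can be set side by side between genes of 1 library. A lower FPKM is a smaller share of a library, and RNA per cell was not measured. A change is log2 of the ratio of FPKM + 1, fas S.j. over wild type at the same temperature. The study's limit on the fold change, 0.8 on the log2 scale, served as the call, without the study's p-value. The tables give no counts. From the steps between low FPKM values at 24°C, about 633 to 14628 reads lay behind each member in each library, for a counting SD of at most 0.073 on the log2 scale. This estimate is approximate, covers counting error only, and would become 0.16 at a depth 5 times lower.

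Complex III takes electrons from ubiquinol and passes them through cytochrome c1 to cytochrome c, a small soluble heme protein of the intermembrane space. Complex IV takes them from cytochrome c to oxygen, and both complexes pump protons. The catalytic cores, cytochrome b and the oxidase subunits Cox1, Cox2 and Cox3, are encoded in the mitochondrial DNA and were not analysed here. The genes described are nuclear, and their proteins are imported. Fission yeast has no proton-pumping complex I, and single-protein NADH dehydrogenases feed its ubiquinone pool in its place.

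At 24°C the subunit genes of both complexes stood lower in fas S.j. and cytochrome c stood higher. All 6 genes of complex III and all 3 of complex IV were lower, with median changes of -0.36 and -0.48, and cyc1 was higher by 0.30. That makes 9 of 10 members lower, where 50.7% of the 4943 genes that reached a mean FPKM of 1 were lower. The median change was -0.37 over the 10 members and 0.00 over these 4943 genes. Among the 1115 genes that reached a mean FPKM of 100, the range of expression the members occupy, 609 were lower and the median was -0.02. The changes were modest in size: 0 of the 10 members fell by 0.8 or more, a limit passed by 2.08% of all genes, and 0 rose by as much, against 4.19%.

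**Figure D1:**
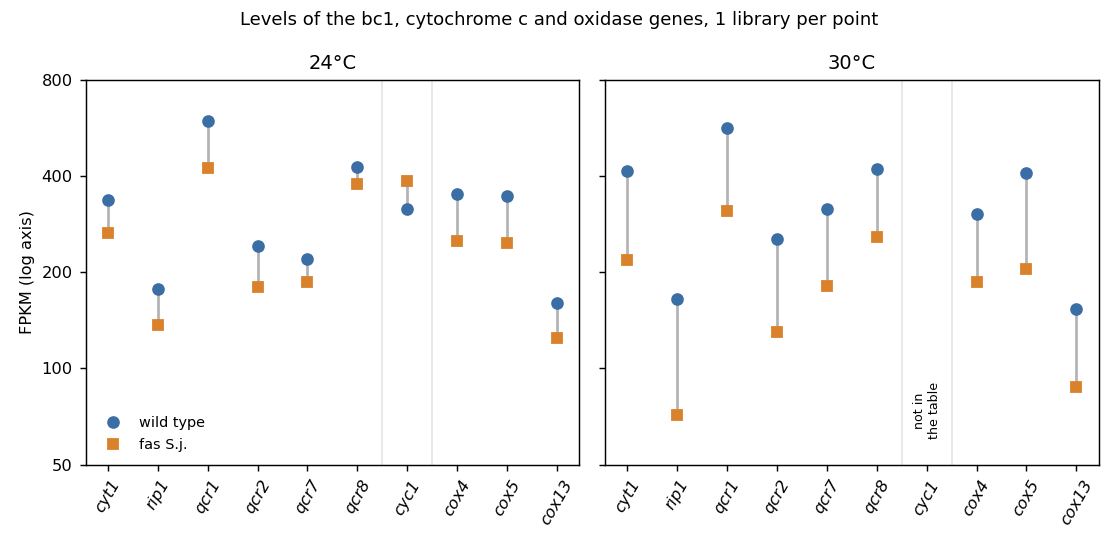
FPKM (log axis) of each member in the libraries of wild type and fas S.j. at 24°C and 30°C, 1 point per library, grey lines joining the strains, and no error bars because each condition has 1 library. The fas S.j. point lies below the wild-type point for every gene and temperature shown except cyc1 at 24°C, where it lies above (387 against 315).

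In complex III, cyt1 encodes cytochrome c1, the heme-carrying subunit that hands electrons to cytochrome c. In ASM294v3 it spans chrII:2073236-2074742 on the forward strand. Its FPKM at 24°C was 335 in wild-type cells and 265 in fas S.j., 79.1% of wild type and a change of -0.34. At 30°C it was 416 and 219, 52.5% of wild type and a change of -0.93. The fas S.j. library was thus the lower of the pair at both temperatures, with a wider gap at 30°C.

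The Rieske iron-sulphur protein, which takes the first electron from ubiquinol, is encoded by rip1 (chrII:2288882-2290113, reverse strand). Its FPKM was 177 and 136 at 24°C, a change of -0.37. At 30°C it was 164 and 71.5, a change of -1.19 that left 43.5% of the wild-type level. This was the lowest change of any member at either temperature, although at 24°C rip1 was in the middle of the set. Measured within a library, the ratio of rip1 to cyt1 FPKM was 0.528 against 0.514 at 24°C and 0.395 against 0.327 at 30°C, wild type first. The rip1 gene lies wholly within the span of ppa2, a protein phosphatase subunit gene on the opposite strand, and the strand setting of the authors' counting is not given in the sources used here. The ppa2 FPKM at 24°C was 75.9 in the wild-type library and 85.0 in the fas S.j. library, so the listed level of the overlapping gene went the other way by 0.16.

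The core proteins, large subunits on the matrix side of the complex, come from qcr1 (chrII:2032842-2034899, reverse strand) and qcr2 (chrIII:96627-98210, forward strand). For qcr1 the FPKM was 594 and 423 at 24°C, a change of -0.49, and 566 and 311 at 30°C, a change of -0.86. It was the most abundant of the 10 members in both 24°C libraries and of the 9 listed in both 30°C libraries. For qcr2 the FPKM was 242 and 179 at 24°C, a change of -0.43, and 254 and 130.2 at 30°C, a change of -0.96. The FPKM ratio of qcr1 to qcr2 was 2.46 against 2.36 at 24°C and 2.22 against 2.39 at 30°C, wild type first. In the annotation Qcr1 is also the beta subunit of the mitochondrial processing peptidase, which removes targeting sequences from imported proteins. Its alpha subunit gene, mas2, had an FPKM of 95.8 and 78.7 at 24°C, a change of -0.28, so the ratio of qcr1 to mas2 was 6.21 in wild-type cells and 5.38 in fas S.j.

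The small subunits without a cofactor, qcr7 (chrIII:1886995-1888049, reverse strand) and qcr8 (chrI:4767056-4767986, forward strand), had the changes nearest 0 among the 6 complex III members at 24°C. The qcr7 FPKM was 219 and 187 at 24°C, a change of -0.23, and 315 and 181 at 30°C, a change of -0.79. The qcr8 FPKM was 427 and 378 at 24°C, a change of -0.17, and 419.6 and 258 at 30°C, a change of -0.70. At 24°C these fas S.j. levels were 85.0% and 88.7% of wild type. They were below wild type at both temperatures, like the other complex III members.

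Cytochrome c, the mobile carrier between the complexes, is encoded by cyc1 (chrIII:1714622-1715798, forward strand). At 24°C its FPKM was 315 in the wild-type library and 387 in the other, 123% of wild type and a change of 0.30. It moved from the 6th to the 2nd place among the members by level. Relative to cyt1, the subunit it takes electrons from, cyc1 stood at 0.938 in wild-type cells and 1.46 in fas S.j. Its ratio to qcr1 was 0.529 and 0.913, and to cox5 0.911 and 1.57. The 30°C table analysed here has no cyc1 entry, and it lists only genes that were lower in fas S.j., so the level of cyc1 at 30°C was not analysed.

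In complex IV, cox4 (chrI:711235-712354, forward strand) and cox5 (chrIII:1357794-1358712, forward strand) encode nuclear subunits that surround the mitochondrially encoded core. The cox4 FPKM was 352 and 250.3 at 24°C, a change of -0.49, and 304 and 187 at 30°C, a change of -0.70. The cox5 FPKM was 345 and 247 at 24°C, a change of -0.48, and 408 and 204 at 30°C, a change of -0.99. At 24°C these genes kept nearly equal levels, with a ratio of cox5 to cox4 of 0.979 in wild-type cells and 0.987 in fas S.j., whereas at 30°C the ratio was 1.34 and 1.10. The subunit VIa gene cox13 (chrIII:2046412-2047387, reverse strand) had an FPKM of 160.2 and 125 at 24°C, a change of -0.36, and 153 and 87.2 at 30°C, a change of -0.81. It was the least abundant member in both 24°C libraries.

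The place of each member among all 4943 genes ordered by change at 24°C gives the size of these differences without a test. The lowest were cox4, qcr1 and cox5, at percentiles 4.37, 4.39 and 4.49. Then came qcr2 at 5.58, rip1 at 7.02, cox13 at 7.77 and cyt1 at 8.62. The genes qcr7 and qcr8 were at 16.0 and 23.3, and cyc1 lay on the other side at 83.3. For reference, 5% of all genes had a change of -0.46 or lower and 25% a change of -0.16 or lower.

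The order of the levels was mostly kept between the strains. Spearman's rho between the strains was 0.83 over the 10 members at 24°C and 0.97 over the 9 listed at 30°C, given as a description. The points of each comparison share the same genes and lengths. The levels of cox5, cox4, cyt1 and cyc1, between 315 and 352 in wild type at 24°C, were close together, and with 1 library their order cannot be set against a spread. The main move in the order was that of cyc1.

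At 30°C all 9 listed members were lower, which the table itself fixes, because the highest log2 ratio of FPKM among its 285 genes was -0.500257. The table held 9 of the 10 members, against 5.54% of the genes of the 24°C table. How the genes of the table were chosen is not given in the sources used here, so absence from it says nothing of a level. A fall of 0.8 or more was seen for 6 of the 9 (rip1, cox5, qcr2, cyt1, qcr1 and cox13), against 30.5% of the genes in the table. The median change of the 9 was -0.86, with a range from -1.19 to -0.70, and that of all genes in the table was -0.65. The 6 complex III members had a median of -0.89 and the 3 complex IV members of -0.81. Their order at 24°C was the other way, for these genes only and with 1 library per condition. With the limit moved from 0.8 to 1, rip1 alone passed.

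The change was further below 0 at 30°C than at 24°C for all 9. The same held for 80.7% of the 269 genes in the 30°C table that reached a mean FPKM of 1 at both temperatures, a table that holds only falls at 30°C. The difference between the temperatures had a median of -0.53 in the members and -0.31 over those genes. Over the 88 genes of the 30°C table that reached a mean FPKM of 100 at both temperatures, 78 had a difference below 0. Their median was -0.35. Among the members the difference was widest for rip1, at -0.81, followed by cyt1 at -0.59 and qcr7 at -0.56, and narrowest for cox4, at -0.21. Without replicates these differences were not tested.

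**Figure D2:**
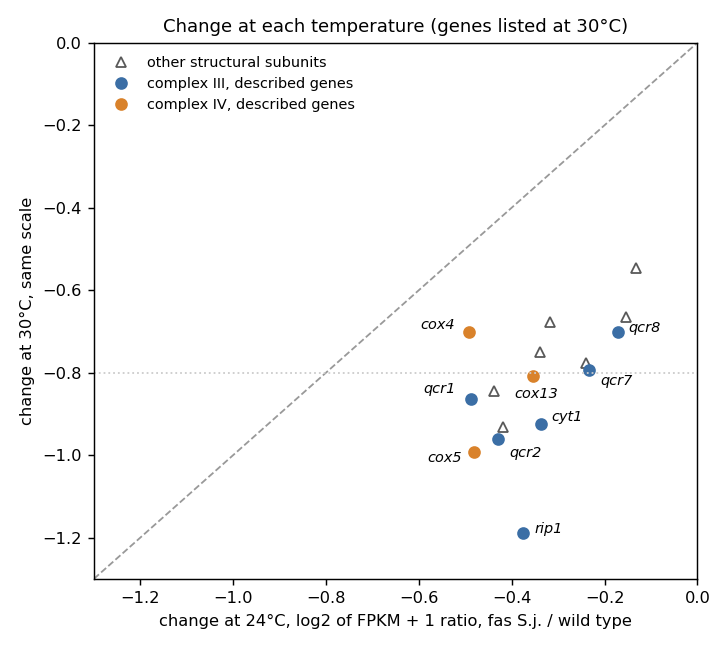
Change at 24°C (horizontal) and at 30°C (vertical), both as log2 of the ratio of FPKM + 1, for the 9 members and 7 other structural subunits listed at 30°C, 1 point per gene. The dashed line marks equal change and the dotted line a fall of 0.8 at 30°C. Every point lies below the dashed line, and rip1, at -1.19, lies lowest.

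The remaining nuclear structural subunits had changes of the same sign with 1 exception. Of the 8 genes, 7 were lower at 24°C, with a median of -0.28 and a range from -0.44 to 0.11, and 0 passed 0.8. In complex III, qcr10 had an FPKM of 213 and 159, a change of -0.42, and qcr6 of 282 and 254, a change of -0.15. The exception was qcr9, at 189 and 204, a change of 0.11. In complex IV, cox9 had the lowest change (197 and 145, -0.44), followed by cox6, SPAC1B2.04 (212 and 168, -0.34), cox8 (242 and 194, -0.32), cox12 (363 and 307, -0.24) and cox7 (164 and 149, -0.13).

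At 30°C 7 of these 8 genes were in the table, with a median of -0.75, and 2 of them passed a fall of 0.8, qcr10 at -0.93 and cox9 at -0.84, a share near the 30.5% of all genes in the table. The gene qcr9 was absent. Together with the members, 18 genes, 16 were lower at 24°C (median -0.34) and the 16 in the 30°C table had a median of -0.80.

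The genes that build the complexes lay on both sides of 0. Of 6 genes for assembly of complex III and cytochrome c, 4 were lower at 24°C and the median was -0.07. Among them cbp3, an assembly factor of cytochrome b, had the lowest change, -0.36 at 24°C and -0.89 at 30°C, where it was the one gene of this list in the table. The highest was cyt2, the heme lyase for cytochrome c1, at 0.28. Of 19 genes for assembly of complex IV, 12 were lower and the median was -0.09. In the 30°C table were 3 of them, against 5.54% of the genes of the 24°C table. The assembly factor coa2 had the lowest change, -0.40 at 24°C and -0.95 at 30°C. The assembly factor cmc1 was the 1 gene of this list past a rise of 0.8, with an FPKM of 24.5 in wild-type cells and 44.7 in fas S.j. and a change of 0.84.

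Enzymes that deliver electrons to ubiquinone, the substrate side of complex III, moved in both directions. Of 8 genes listed for this step, 2 were lower and 6 higher at 24°C, with a median of 0.31. The 8 include dld1, at 0.51, whose place in this step was not checked. Without dld1 the middle change of the list was that of sdh1, at 0.21. The NADH dehydrogenase gene nde1 had an FPKM of 542.5 and 246.5 at 24°C, a change of -1.13, and 383 and 118 at 30°C, a change of -1.69. It was the 1 gene of this list to pass a fall of 0.8 at 24°C, a limit that 2.08% of all genes passed. At each temperature its fall was larger than that of any member at that temperature. The other NADH dehydrogenase gene, ndi1, had an FPKM of 92.0 and 74.4, a change of -0.30, so the ratio of nde1 to ndi1 was 5.89 in wild-type cells and 3.31 in fas S.j.

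Succinate dehydrogenase, complex II, went the other way from complexes III and IV. The iron-sulphur subunit gene sdh2 passed a rise of 0.8, a limit that 4.19% of all genes passed. Its FPKM was 82.8 and 159 at 24°C, a change of 0.93. The flavoprotein gene sdh1 was at 274 and 318 (0.21), and the membrane anchor genes sdh3 at 164 and 219.8 (0.42) and tim18, also called sdh4, at 115 and 188 (0.71). All 4 were higher, and the 30°C table has no entry for them. Per unit of cyt1, sdh2 stood at 0.247 in wild-type cells and 0.60 in fas S.j. The values of complex II and complex III thus diverged within the same libraries.

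The 13 genes for ubiquinone synthesis had a median of 0.04, with 5 lower and 8 higher. They ranged from -0.14 for the monooxygenase gene coq6 to 0.55 for dlp1, a subunit of the enzyme that makes the ubiquinone side chain. Heme synthesis had 7 genes, of which hem14 was listed at 0 in both libraries, and the other 6 had a median of -0.09. The lowest was hem15, for ferrochelatase, at -0.36. The highest was hem1, for the first enzyme of the pathway, with an FPKM of 177 and 299 and a change of 0.75. No gene of either list was in the 30°C table.

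**Figure D3:**
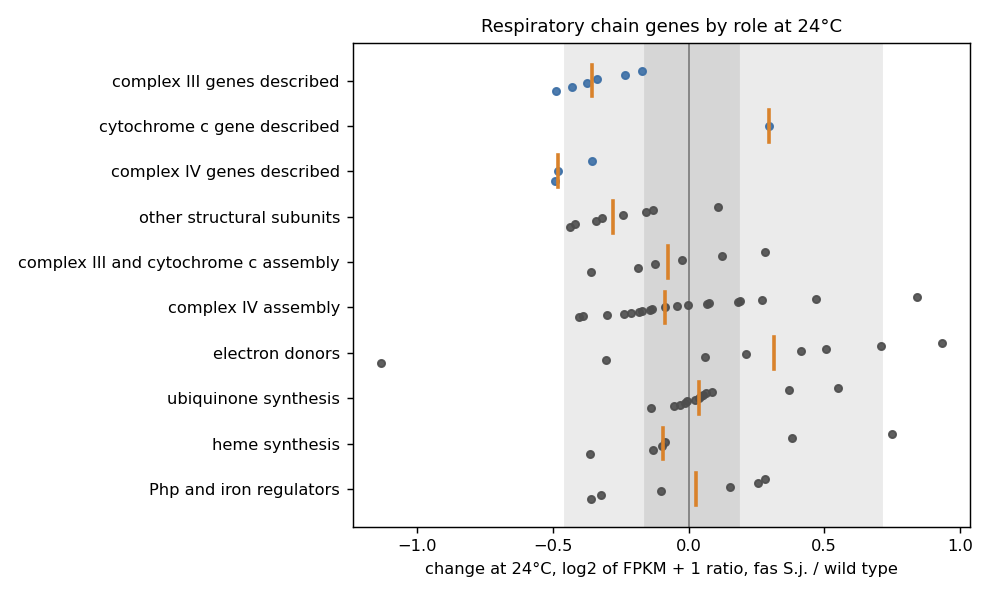
Change at 24°C (log2 of the ratio of FPKM + 1) of each gene of the 10 members and of the pathway lists, 1 row per list and 1 point per gene, with an orange bar at the list median and the 10 members in blue. The light and dark bands hold the middle 90% (-0.46 to 0.71) and the middle 50% (-0.16 to 0.19) of all genes, and hem14, listed at 0, is left out. The subunit rows lie mostly to the left of 0 (medians -0.36 and -0.48 for complexes III and IV). The rows of electron donors (median 0.31, with dld1 counted) and ubiquinone synthesis (median 0.04) do not.

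Iron-dependent repression of respiratory genes in S. pombe is known to act through Php4, a subunit recruited to the CCAAT-binding complex of Php2, Php3 and Php5 when iron is scarce. The glutaredoxin Grx4 and the repressor Fep1 belong to the same iron circuit. Of these 6 regulators, 3 were lower and 3 higher at 24°C, with a median of 0.03. The lowest change was that of grx4 (FPKM 201 and 156), -0.36 at 24°C and -0.77 at 30°C. The highest was php2, at 0.28, and php4 had an FPKM of 63.3 and 70.5, a change of 0.15. The other Php genes were lower, php3 at -0.10 and php5 at -0.32. At 30°C php5 had an FPKM of 88.6 and 56.5, a change of -0.64.

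The promoters were searched for the box that gives this complex its name. Windows ran from 250 bases before to 50 bases after the annotated transcript start, in RefSeq's ASM294v3, and the letters CCAAT were counted on either strand (ATTGG when it lies on the other). The box was found in 8 of the 10 members and in 42.2% of 5112 windows of protein-coding genes. At least 2 matches were present in 5 of the 10, and in 10.8% of all windows. At least 3 were present in qcr2 and cyc1, and in 1.92% of all windows. In cyt1 and qcr7, which held 2 each, 1 match lay after the start, at 23 and 9 bases. The windows of rip1 and cox13 held none. A match is a description of the letters in the window and was not measured as a binding site.

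Sites of 4 members are shown, each read 5′ to 3′ on the gene's strand with the box in capitals and the distance of its first base from the transcript start. The cyt1 and cox5 sites are examples from complexes III and IV in windows where no other coding gene overlaps the bases before the start, which also holds for qcr1 and cox4. The qcr2 and cyc1 sites are shown because these genes have 3 boxes each and opposite changes at 24°C, and their windows overlap SPCC613.09 and SPCC191.06. A further cyt1 box, at 23 bases after the start, is not shown.
cyt1, -58 (chrII:2073166-2073194): gattcctgtatgCCAATtatcgtcgggaa
cox5, -40 (chrIII:1357742-1357770): tccgacagtgtgCCAATgggactcccgag
cox5, -22 (chrIII:1357760-1357788): ggactcccgaggATTGGcgttggccttct
qcr2, -170 (chrIII:96445-96473): atattctgcaccATTGGcatttgaagcag
qcr2, -104 (chrIII:96511-96539): ttgattcattaaATTGGaagaacttaaac
qcr2, -50 (chrIII:96565-96593): taacgcaactggCCAATtcaaactttgtc
cyc1, -107 and -102 (chrIII:1714505-1714534): aaaggtaaacATTGGATTGGctcgccatgt
cyc1, -65 (chrIII:1714545-1714573): agagctcatgaaCCAATgaaataagggcg
In cyc1 the boxes at -107 and -102 follow each other directly in the same orientation, and the one at -65 has the opposite orientation. In cox5 the boxes at -40 and -22 face opposite ways.

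The number of boxes is set beside the changes at 24°C, and a link between them was not tested. With no box, rip1 was at -0.37 and cox13 at -0.36. With 2 boxes, of which 1 lies after the start in cyt1 and qcr7, cyt1 was at -0.34, qcr7 at -0.23 and cox5 at -0.48. With 3 boxes, qcr2 was at -0.43 and cyc1 at 0.30. The single boxes of qcr1 at -87, qcr8 at -31 and cox4 at -135 went with changes of -0.49, -0.17 and -0.49 at 24°C. Of the 8 other structural subunits, 4 had at least 1 box.

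**Figure D4:**
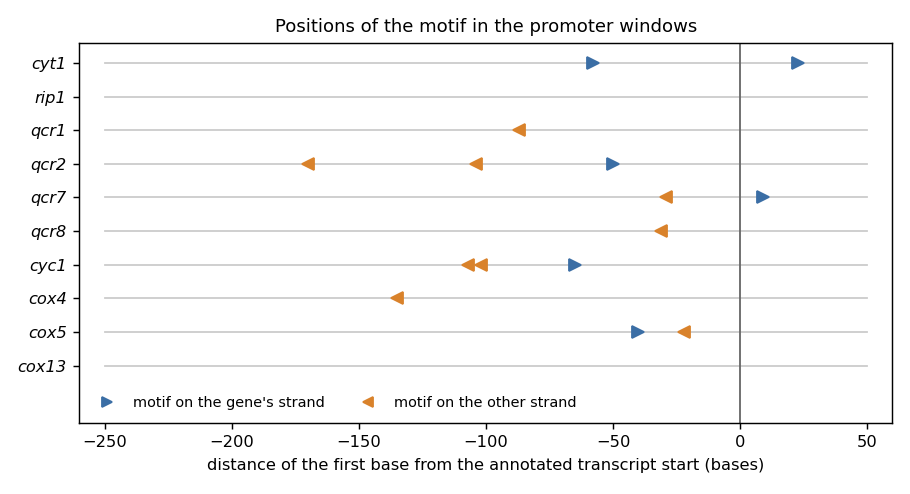
Positions of the box in the promoter window of each member, by distance in bases of its first base from the annotated transcript start, with triangles pointing right for the gene's strand and left for the other. The windows of qcr2 and cyc1 hold 3 boxes each, and those of rip1 and cox13 hold none.

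The genes most like the complexes were sought among 79 further genes of the 30°C table that reached a mean FPKM of 100. The measure was the distance of a gene's changes at 24°C and 30°C from the medians of the 9 listed members, -0.37 and -0.86, so likeness rests on 2 values per gene. The nearest were cox9 at 0.066, qcr10 at 0.081, grx4 at 0.094, cox6 at 0.118 and hsp104, a protein disaggregase, at 0.121. Of the 79 candidates, 7 were other structural subunits, and 3 of these were among the 5 nearest.

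Of all 5143 genes at 24°C, 2362 were alone in their locus. Cuffdiff grouped 7 of the 10 members into a locus with other genes, and cyt1, qcr1 and cox13 were alone. The median change of these 3 was -0.36 at 24°C, near that of all members, and -0.86 at 30°C. The 7 shared loci held 11 partner genes, of which 9 stood higher and 2 lower in the fas S.j. library at 24°C. Among the 4943 genes that reached a mean FPKM of 1, 2438 were higher. The highest partner level in wild type was 75.9 (ppa2). The part of reads from the partners in the members' values was not tested. The 3 partners of cyc1 were SPCC191.06 on the same strand, which overlaps it by 10 bases (FPKM 6.11 and 4.25 at 24°C), SPCC191.05c (9.32 and 17.2) and SPCC191.04c (1.66 and 9.99).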

How the data were processed

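Poly(A) RNA of 4 libraries, wild type and fas S.j. at 24°C and 30°C, was analysed from the authors' gene tables. The libraries were strand-specific per the methods of the study. For the Illumina instrument and the read length the records and the methods disagree. Per the submitters' processing notes TopHat and Cuffdiff were used, and the authors deposited the FPKM values that Cuffdiff gave for each library. Versions, genome build and the strand setting of the counting are not given in the sources used here. Columns with the authors' fold changes, test statistics, p-values and q-values, and a short unlabelled list of gene identifiers with fold changes beside the 30°C table, were not used.

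Changes are log2 of the ratio of FPKM + 1 (pseudocount 1). Counts and medians over all genes used a mean FPKM of at least 1. The alternatives were pseudocounts of 0.1 and 10, centring, other fold limits, other minimum FPKM values and members alone in their locus. Depth was estimated from steps of low FPKM values with 200 bases taken off the gene length. Of 5143 identifiers, 5106 matched ASM294v3, which gave names and coordinates. Of 2348 genes alone in their locus, 1929 (82.2%) shared an end with it within 1 base. The windows and sites are RefSeq's, and the deposited tables name no build.

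The genes named were all members, fas1 and fas2, the other structural subunits, list genes past 0.8 at 24°C, the highest and lowest of each list, and the 5 genes most like the members. Outside this rule, named after their values were seen, are mas2, ppa2, ndi1, hem14, php3, php4, php5, sdh1, sdh3, tim18 and dld1. So are coa4, gut2 and the locus partners of cyc1. The members and the lists were chosen with earlier results of these data known. Calculations used matplotlib 3.10.9, pandas 2.3.3, numpy 2.4.6 and scipy 1.17.1 under Python 3.11.15. The change formula alone was run on simulated FPKM pairs without noise, which checks its arithmetic and none of the other steps.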

Additional observations from a re-analysis of the deposited data

Results flagged for a closer look

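Changes of opposite sign at the 2 temperatures were seen for 2 genes of the pathway lists. The assembly factor coa4 had an FPKM of 115 and 121 at 24°C, a change of 0.07, and 222 and 137 at 30°C, a change of -0.69, a difference of -0.77 between the temperatures. The glycerol-3-phosphate dehydrogenase gene gut2, which feeds ubiquinone, had an FPKM of 51.3 and 53.6 at 24°C, a change of 0.06, and 93.0 and 49.96 at 30°C, a change of -0.88, a difference of -0.94. Each rests on 1 library per strain and temperature, and the difference was not tested. The 30°C table holds only falls, so a change of sign can appear there only for a gene that was higher at 24°C.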

How the results depend on the processing

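The number of members past a fall of 0.8 at 30°C went from 6 to 1 (rip1) with a limit of 1, since the other 5 had changes between -0.99 and -0.81. With pseudocounts of 10 and 0.1, chosen for this count after seeing the data, it was 5 and 6. All 19 changes of single members kept their sign under both pseudocounts, moving by at most 0.09, and all 10 at 24°C under centring, where they moved by 0.01. The median at 24°C ranged from -0.37 to -0.34 over these settings and without cyc1, the last also chosen after seeing the data. At 24°C 0 members passed a fall of 0.5 or of 1. The share of all genes past a fall of 0.8 at 24°C was 2.08%, 2.06% with no minimum FPKM and 1.78% with a minimum of 10. A search of protein motifs that had been planned was not run. No paired analysis was possible because each strain has 1 library per temperature. Centring at 30°C was not possible on a table that holds only falls, and a single library per condition sets no limit on culture-to-culture variation.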

Other observations

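The CCAAT box was also counted in the windows of the other lists. It was present in 6 of the 8 genes of the electron donor list, which counts dld1 and had a median change of 0.31 at 24°C. It was also in 1 of 7 heme synthesis genes and in 6 of 13 ubiquinone synthesis genes. Of the 19 complex IV assembly genes 9 had it, and of the 6 regulators 5. Over all protein-coding windows the share was 42.2%.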
